A study of Mus musculus with 16 samples.

Results

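Phospholipases A2 cut the fatty acid from the middle position of a membrane phospholipid and leave a lysophospholipid. When the released fatty acid is arachidonic acid, it feeds the synthesis of prostaglandins and leukotrienes. The secreted enzymes are small, calcium-dependent proteins that act outside the cell, and some of them also attack the phospholipids of bacteria. The cytosolic enzyme Pla2g4a acts inside the cell on calcium signals. In the gut the secreted group IIA enzyme is best known as an antibacterial product of small intestinal Paneth cells.

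The 5 phospholipase A2 genes described here are Pla2g2a, Pla2g5, Pla2g10 and Pla2g12a, of the secreted families, and Pla2g4a, which codes for the cytosolic enzyme. They were taken by symbol from the probe sets that name 1 gene. Each of the 5 has a single probe set, and 19938 genes were tested in all. Their levels were measured in colonic epithelial cells on 16 whole-transcript arrays in 8 groups, with 2 arrays per group and the pooled RNA of 3 mice on each array.

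All mice were C57BL/6, gender-matched and 70 days old. The groups after dextran sulfate sodium (DSS), which injures the colonic epithelium, drank 2% DSS in water for 8 days, and their counterparts were untreated. Secretory IgA (SIgA) could reach the gut from 2 sources. Passive SIgA came with the milk of Pigr+/- dams and was missing in offspring of Pigr-/- dams. Active SIgA depended on Pigr made by the offspring itself, a receptor that moves IgA through the epithelium, and was present in Pigr+/- and absent in Pigr-/- offspring. The 4 SIgA groups are called neither (Pigr-/- offspring of Pigr-/- dams), active only (Pigr+/- offspring of Pigr-/- dams), passive only (Pigr-/- offspring of Pigr+/- dams) and passive and active (Pigr+/- offspring of Pigr+/- dams). Every offspring carried at least 1 Pigr- allele, and no Pigr+/+ animal was among them. Litters share a dam, so dam genotype and litter cannot be told apart.

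C57BL/6 is a strain with a known frameshift in Pla2g2a, and it makes no working group IIA enzyme. The RefSeq table of assembly GRCm38.p6 lists Pla2g2a as a transcribed pseudogene on chromosome 4 with no protein. The Pla2g2a values below are therefore transcript levels only. All levels are log2 intensities, so a difference of 1 is a doubling, and they compare arrays within a probe set but not 1 gene with another. A gene is called at an adjusted p under 0.05 (limma, Benjamini-Hochberg over the 19938 genes, two-sided).

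Before the members, the arrays were checked against their labels. Pigr lay between 11.34 and 11.70 on every array of Pigr-/- offspring, against 12.18 to 12.46 on every array of Pigr+/- offspring. The 14 colonic epithelial markers averaged 12.32 to 12.47 per array after DSS and 12.40 to 12.53 in untreated mice. On the first principal component, with 34.1% of the variance, 3 arrays stood apart. They were both untreated arrays with passive and active SIgA (-33.5 and -35.2) and the first untreated array with active SIgA only (-32.2), where the other 13 arrays ran from -5.52 to 27.4. All 3 came from untreated Pigr+/- offspring. For the member values that the results turn on, those without these arrays are given as well where the remaining groups allow it. A comparison then averages only the matched sets of groups that remain. The average DSS effect thus drops the passive-and-active group, its DSS arrays included. Averages over DSS and untreated mice then weigh DSS mice more.

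Pla2g2a and Pla2g5 rose after DSS in each of the 4 SIgA groups, and Pla2g10, Pla2g12a and Pla2g4a were not called in any. Pla2g2a was 3.67-fold higher (95% interval 3.26 to 4.14) and Pla2g5 was 1.93-fold higher (1.74 to 2.15) on average. Of all genes, 6.4% were called higher after DSS in that average. In pooled RNA, more cells of a type and more RNA per cell cannot be told apart. The plot of levels on each array shows the 5 members side by side.

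**Figure D1:**
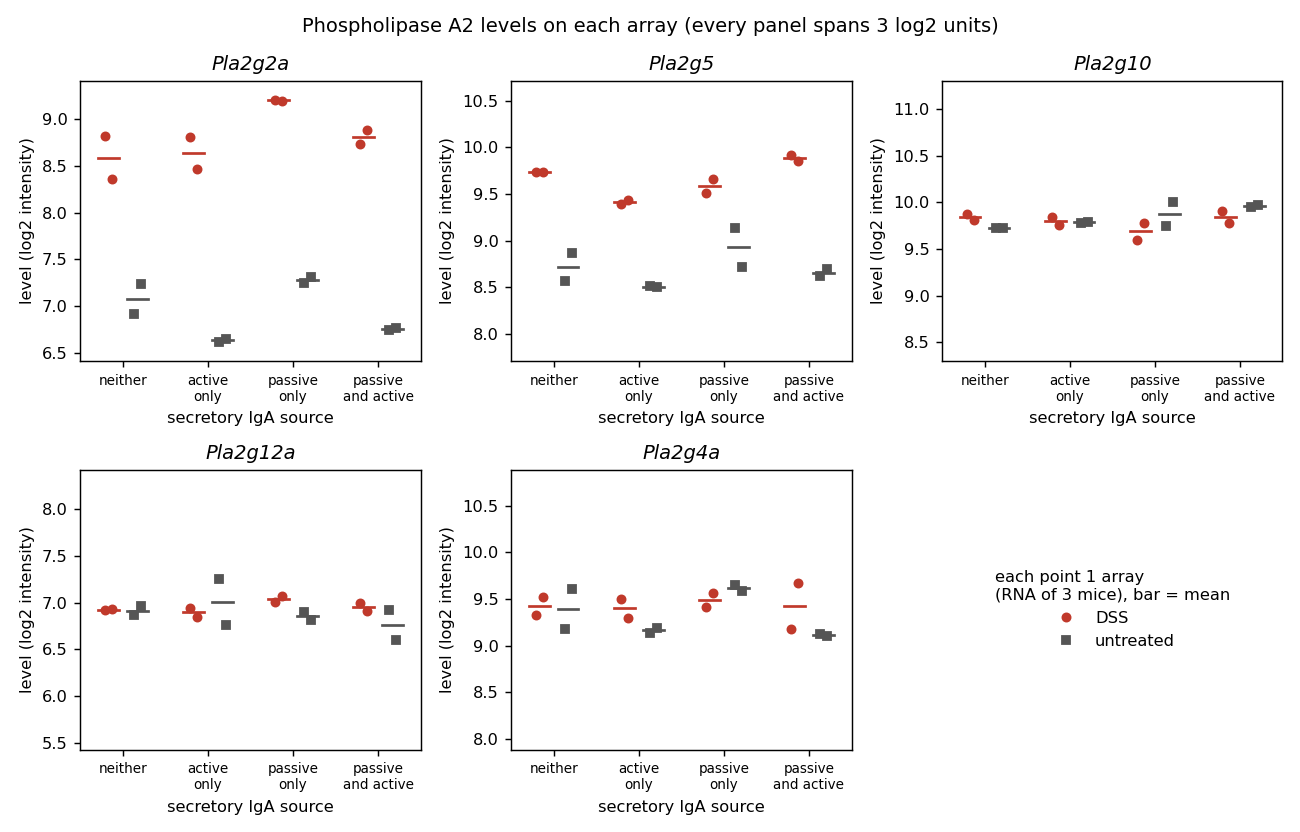
Level of each phospholipase A2 gene (log2 intensity, y axis, every panel spanning 3 log2 units) in the 4 SIgA groups (x axis), with DSS arrays as red circles left of untreated arrays as grey squares and bars at the mean of 2 arrays. Pla2g2a and Pla2g5 lie higher on all 8 DSS arrays than on all 8 untreated arrays, and the arms overlap for the other 3 genes. How many of all genes have no overlap was not counted.

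Pla2g2a, the group IIA gene, had the following levels after DSS. Its level was 8.82 and 8.36 with neither SIgA source, 8.81 and 8.47 with active only, 9.21 and 9.20 with passive only, and 8.74 and 8.88 with passive and active. In untreated mice it was 6.91 and 7.23 with neither, 6.61 and 6.65 with active only, 7.25 and 7.31 with passive only, and 6.74 and 6.76 with passive and active. The lowest DSS array thus lay above the highest untreated array (8.36 against 7.31). How many of all genes had no overlap between the arms was not counted, for this gene or for those below. Of all genes, 1276 were called higher and 1342 lower for the average DSS effect. The average DSS effect was 1.88 ± 0.08 log2 (SE; adjusted p = 1.49e-08), and its p was the fifth smallest among the 19938 genes. Without both untreated passive-and-active arrays, which were among those that stood apart, the effect was 1.82 ± 0.10 (adjusted p = 6.66e-07), and without all 3 such arrays it was 1.81 ± 0.10 (adjusted p = 2.66e-06).

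Pla2g5, the group V gene, codes for a secreted enzyme that is known to cleave phosphatidylcholine and to be made by macrophages among other cells. After DSS its level was 9.73 and 9.74 with neither SIgA source, 9.39 and 9.44 with active only, 9.51 and 9.66 with passive only, and 9.92 and 9.85 with passive and active. In untreated mice it was 8.57 and 8.87 with neither, 8.51 and 8.50 with active only, 9.14 and 8.72 with passive only, and 8.62 and 8.69 with passive and active. Here too the arms did not overlap, and the gap was narrow: the lowest DSS array stood at 9.39 and the highest untreated array, 1 of the passive-only pools, at 9.14. The average DSS effect was 0.95 ± 0.07 (SE; adjusted p = 1.68e-06), rank 50 by p among the 19938 genes. It was 0.86 ± 0.08 without both untreated passive-and-active arrays (adjusted p = 7.52e-05) and 0.86 ± 0.09 without the 3 arrays that stood apart (adjusted p = 0.000218).

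Pla2g10, the group X gene, codes for a secreted enzyme with strong activity on phosphatidylcholine that is made in colonic epithelium. It ran from 9.60 to 9.91 after DSS (median 9.79) and from 9.72 to 10 in untreated mice (median 9.78). The arms overlapped, and the average DSS effect was -0.04 ± 0.06 (95% interval -0.16 to 0.08; adjusted p = 0.717). The interval therefore leaves out a rise of the size seen for Pla2g5.

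Pla2g12a, the group XIIA gene, codes for a structurally distant secreted member with weak enzyme activity. It ran from 6.85 to 7.07 after DSS (median 6.93) and from 6.60 to 7.25 in untreated mice (median 6.89). The DSS effect was 0.07 ± 0.07 (95% interval -0.09 to 0.23; adjusted p = 0.657). Pla2g4a, the cytosolic enzyme with a preference for arachidonic acid, ran from 9.18 to 9.67 after DSS (median 9.45) and from 9.10 to 9.65 in untreated mice (median 9.19). Its DSS effect was 0.11 ± 0.08 (95% interval -0.07 to 0.29; adjusted p = 0.455). The ranges of DSS and untreated arrays overlapped for each of these 3 genes.

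Within single SIgA groups the 2 responding genes passed the test in all 4. With neither SIgA source, Pla2g2a rose by 1.51 ± 0.16 (adjusted p = 0.00063) and Pla2g5 by 1.02 ± 0.14 (adjusted p = 0.00269), where 0.492% of all genes were called higher. With active SIgA only, Pla2g2a rose by 2.01 ± 0.16 (adjusted p = 4.16e-05) and Pla2g5 by 0.91 ± 0.14 (adjusted p = 0.00627), against 0.622% of all genes. With passive SIgA only, Pla2g2a rose by 1.93 ± 0.16 (adjusted p = 6.88e-05) and Pla2g5 by 0.65 ± 0.14 (adjusted p = 0.0294), against 0.893%. With passive and active SIgA, Pla2g2a rose by 2.06 ± 0.16 (adjusted p = 7.52e-06) and Pla2g5 by 1.23 ± 0.14 (adjusted p = 0.000119), against 3.56%. The DSS effects of Pla2g10, Pla2g12a and Pla2g4a in single SIgA groups lay between -0.19 and 0.32, with a smallest adjusted p of 0.269.

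Pla2g2a passed the test in each SIgA group whichever array was left out, while 2 of the Pla2g5 calls rested on single arrays. The Pla2g5 call with passive SIgA only was lost without the second untreated array of that group (0.44 ± 0.14, adjusted p = 0.281), without its first DSS array (0.73 ± 0.17, adjusted p = 0.112) and without its second DSS array (0.58 ± 0.17, adjusted p = 0.194). The call with active SIgA only was lost without its first DSS array (0.93 ± 0.18, adjusted p = 0.057), without its second DSS array (0.88 ± 0.18, adjusted p = 0.0591) and without the 3 arrays that stood apart (0.91 ± 0.18, adjusted p = 0.0704).

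**Figure D2:**
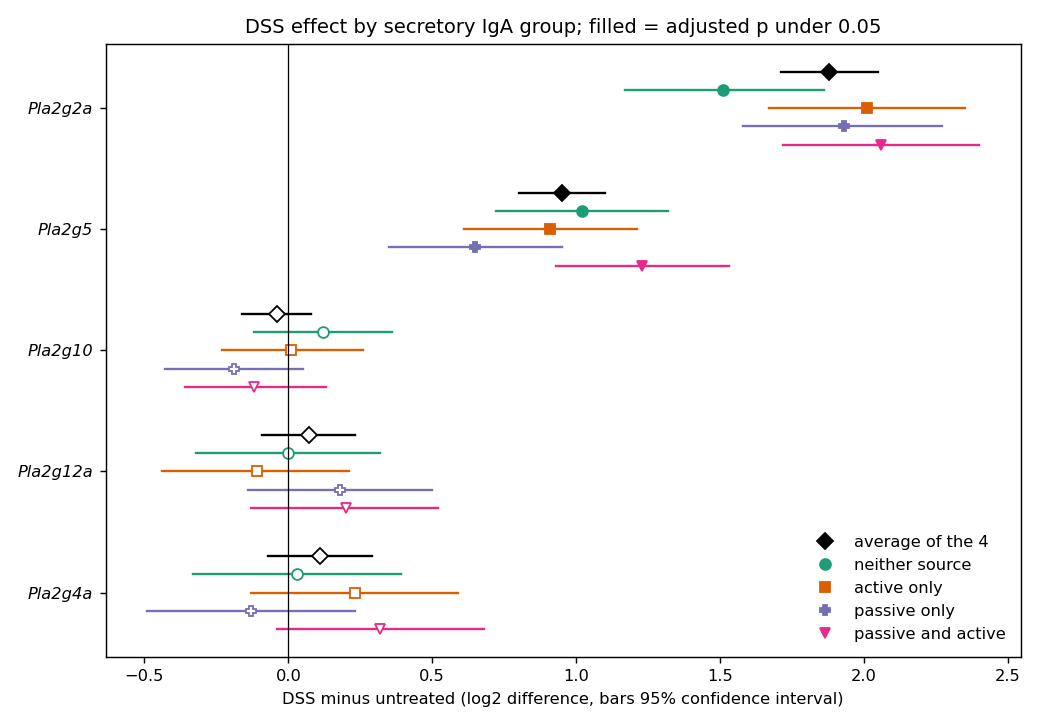
DSS minus untreated difference in level (log2, x axis) of each phospholipase A2 gene (rows), for the mean of the 4 SIgA groups and for each of them, with bars for the 95% confidence interval and filled symbols for an adjusted p under 0.05. All 5 symbols are filled for Pla2g2a and for Pla2g5 and none for the other 3 genes.

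Whether the DSS effect differed between SIgA groups was tested directly in the interactions that include DSS, and limma called no member. Over 4 interactions, passive by active included, 1 unadjusted p under 0.05 was found, for Pla2g5 in the passive by active by DSS term. Of all genes, 1353 had one in that term. The passive by DSS, active by DSS and passive by active interactions had 1622, 2388 and 1575 such genes. The passive SIgA by DSS interaction, the DSS effect without passive SIgA minus that with it, called 0.115% of all genes and was -0.23 ± 0.16 for Pla2g2a (adjusted p = 0.733) and 0.02 ± 0.14 for Pla2g5 (adjusted p = 0.981). The active SIgA by DSS interaction called 0.843% of all genes and was -0.31 ± 0.16 for Pla2g2a (adjusted p = 0.452) and -0.24 ± 0.14 for Pla2g5 (adjusted p = 0.513). The passive by active interaction is averaged over DSS and untreated mice and does not test the DSS effect. It called 0.0752% of all genes, and its smallest adjusted p among the members was 0.678, for Pla2g5. The passive by active by DSS term called 0.0602% and was 0.69 ± 0.28 for Pla2g5 (95% interval 0.09 to 1.29; adjusted p = 0.638). The Pla2g2a response was 1.51 with neither source and 2.06 with both, a contrast added after these values were seen. Their difference was -0.54 ± 0.22 (95% interval -1.03 to -0.06). The interval left out 0, but the difference was not called over all genes (adjusted p = 0.31), where 2.17% of all genes were. It ran from -0.77 to -0.32 with 1 array left out.

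With both untreated passive-and-active arrays left out, no member was called for an interaction either, but several values moved, since each then rests on a single matched set of groups. The active SIgA by DSS value became -0.50 ± 0.23 for Pla2g2a (adjusted p = 0.938) and 0.11 ± 0.21 for Pla2g5 (adjusted p = 0.946), so that of Pla2g5 turned its sign. The passive SIgA by DSS value became -0.41 ± 0.23 for Pla2g2a and 0.36 ± 0.21 for Pla2g5 (adjusted p = 1 each). The passive by active value of Pla2g5 was 0.62 ± 0.21 (adjusted p = 1), against 0.28 ± 0.14 with all arrays. Without the 3 arrays, the active SIgA by DSS value was -0.47 ± 0.27 for Pla2g2a and 0.11 ± 0.23 for Pla2g5 (adjusted p = 1 each). The passive by active by DSS term and the difference between neither and both need the untreated passive-and-active group and have no value without it.

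The group means of the 2 responding genes ran in different orders after DSS and in the same order in untreated mice. For Pla2g2a the means after DSS were 9.21 with passive only, 8.81 with passive and active, 8.64 with active only and 8.59 with neither, and in untreated mice 7.28, 6.75, 6.63 and 7.07 in the same group order. Among neighbours in the order of all 8, the arrays overlapped between the passive-and-active and active-only groups and between the active-only and neither groups, both after DSS. For Pla2g5 the means after DSS were 9.88 with passive and active, 9.74 with neither, 9.58 with passive only and 9.41 with active only, and in untreated mice 8.65, 8.72, 8.93 and 8.51 in the same group order. The untreated passive-only arrays overlapped those with neither, and these overlapped the passive-and-active arrays. The order of SIgA groups after DSS thus was not the same for both genes. In untreated mice both ran from passive only, the highest, through neither and passive and active to active only. For Pla2g10, Pla2g12a and Pla2g4a most neighbouring groups overlapped.

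Lack of active SIgA in untreated mice went with more Pla2g2a transcript, a call that other settings and single arrays removed. In untreated Pigr-/- offspring Pla2g2a stood at 6.91, 7.23, 7.25 and 7.31, against 6.61, 6.65, 6.74 and 6.76 in untreated Pigr+/- offspring. The difference was 0.49 ± 0.11, a 1.40-fold higher level (95% interval 1.18 to 1.66; adjusted p = 0.0209). Pla2g2a was the only one of the 5 members called in that comparison, where 7.49% of all genes were called, 313 higher and 1181 lower. An unadjusted limma p under 0.05 was reached by 5580 genes. How many genes had no overlap between the 2 genotypes was not counted. Pla2g4a differed by 0.36 ± 0.12 (adjusted p = 0.0772) and Pla2g5 by 0.25 ± 0.10 (adjusted p = 0.132), and neither passed. Pla2g4a did pass without either DSS array with passive and active SIgA (0.36, adjusted p = 0.0386 each) and without the first untreated array with neither source (0.47, adjusted p = 0.0426). It was smaller without both untreated passive-and-active arrays (0.23 ± 0.17, adjusted p = 0.539), without the 3 arrays (0.20 ± 0.22, adjusted p = 1) and after quantile normalization (0.24 ± 0.10, adjusted p = 0.203). Pla2g10 differed by -0.07 ± 0.08 and Pla2g12a by 0.00 ± 0.11.

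The Pla2g2a difference stayed between 0.41 and 0.57 under all alternative settings, but not its call. The arrays that stood apart were all from Pigr+/- offspring. Without them, the second active-only array was the only untreated Pigr+/- array left. Without both untreated passive-and-active arrays the Pla2g2a difference was 0.44 ± 0.17 (adjusted p = 0.447), and without the 3 arrays that stood apart it was 0.42 ± 0.21. It rested in both fits on offspring of Pigr-/- dams alone. It also missed the threshold without either untreated array with passive and active SIgA (adjusted p = 0.0554 and 0.0649), without either untreated passive-only array (0.0531 and 0.0852), without the first untreated active-only array (0.0674) and without the second untreated array with neither source (0.117). No neutrophil or macrophage marker was called higher in that comparison. The 15 neutrophil markers averaged 5.90 to 6.02 per array in untreated Pigr-/- offspring and 6.05 to 6.30 in untreated Pigr+/- offspring, and none of them was called. The 14 monocyte and macrophage markers averaged 5.96 to 6.12 and 6.07 to 6.32 in the same order, and 1 of them was called, Adgre1, chosen for mention after its value was seen, which was lower (-0.44 ± 0.11, adjusted p = 0.0356). The markers of other cells that were called in that comparison were also lower, and they too are named after their values were seen. Of 8 B and plasma cell markers, these were Igha, the heavy chain of IgA (-1.07 ± 0.20, adjusted p = 0.0085), and Ms4a1, which codes for CD20 (-0.29 ± 0.08, adjusted p = 0.0483). Of 10 mast cell markers, these were Fcer1a (-0.45 ± 0.10, adjusted p = 0.0207) and Ms4a2 (-0.47 ± 0.11, adjusted p = 0.0269), subunits of the high-affinity IgE receptor. The mean level of the B and plasma cell list ran from 5.52 to 5.75 in untreated Pigr-/- offspring and from 5.69 to 6.13 in untreated Pigr+/- offspring, and that of the mast cell list from 5.44 to 5.72 and from 5.50 to 5.79. No epithelial, Paneth cell, fibroblast, T cell, endothelial or smooth muscle marker was called. With both untreated passive-and-active arrays left out, limma called none of all genes in that comparison, these markers included, and 2176 had an unadjusted p under 0.05. The part of these cells in the Pla2g2a difference was not tested.

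After DSS, no member was called for lack of active SIgA. Pla2g2a differed by 0.17 ± 0.11 (95% interval -0.07 to 0.41; adjusted p = 1), Pla2g5 by 0.01 ± 0.10, Pla2g4a by 0.04 ± 0.12, Pla2g10 by -0.06 ± 0.08 and Pla2g12a by 0.06 ± 0.11. In that comparison 0.00502% of all genes, 1 gene, was called, and 330 had an unadjusted limma p under 0.05. Averaged over untreated and DSS mice, lack of active SIgA gave 0.33 ± 0.08 for Pla2g2a (adjusted p = 0.0622) and 0.20 ± 0.08 for Pla2g4a (adjusted p = 0.231), none called, against 1.37% of all genes. The Pla2g2a value passed when 1 of 3 arrays was left out: the second DSS array with passive and active (0.35, adjusted p = 0.044), the second untreated array with active only (0.34, adjusted p = 0.0444) or the second DSS array with neither (0.39, adjusted p = 0.0441). Without both untreated passive-and-active arrays the Pla2g2a value was 0.26 ± 0.10 (adjusted p = 0.829), and without the 3 arrays it was 0.25 ± 0.10. The Pla2g4a value was 0.10 ± 0.10 and 0.09 ± 0.11. These values take untreated mice from Pigr-/- dams only but DSS mice from both dam genotypes, so DSS mice weigh more in them.

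No member was called for lack of passive SIgA. An unadjusted limma p under 0.05 was reached by 2 of the 5 for the average, by 1 after DSS and by 0 in untreated mice. Of all genes, 3078 reached it for the average and 3959 in untreated mice, and the count after DSS is given below. Averaged over all groups Pla2g2a differed by -0.28 ± 0.08 (95% interval -0.45 to -0.11; adjusted p = 0.113) and Pla2g5 by -0.17 ± 0.07 (adjusted p = 0.27), where 0.963% of all genes were called. In untreated mice, where 2.58% of all genes were called, the 5 members differed by -0.18 to 0.15. After DSS, Pla2g2a stood at 8.82, 8.36, 8.81 and 8.47 in offspring of Pigr-/- dams, against 9.21, 9.20, 8.74 and 8.88 in offspring of Pigr+/- dams, and the 2 sets overlapped. The difference was -0.39 ± 0.11 (95% interval -0.63 to -0.15; adjusted p = 0.746). In that comparison limma called 0% of all genes, and 788 had an unadjusted p under 0.05. The average without both untreated passive-and-active arrays was -0.33 ± 0.10 for Pla2g2a (adjusted p = 0.372) and -0.18 ± 0.08 for Pla2g5 (adjusted p = 0.699), and the values in untreated mice ran from -0.22 to 0.06. The Pla2g2a average was also -0.33 without the 3 arrays (adjusted p = 0.316).

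**Figure D3:**
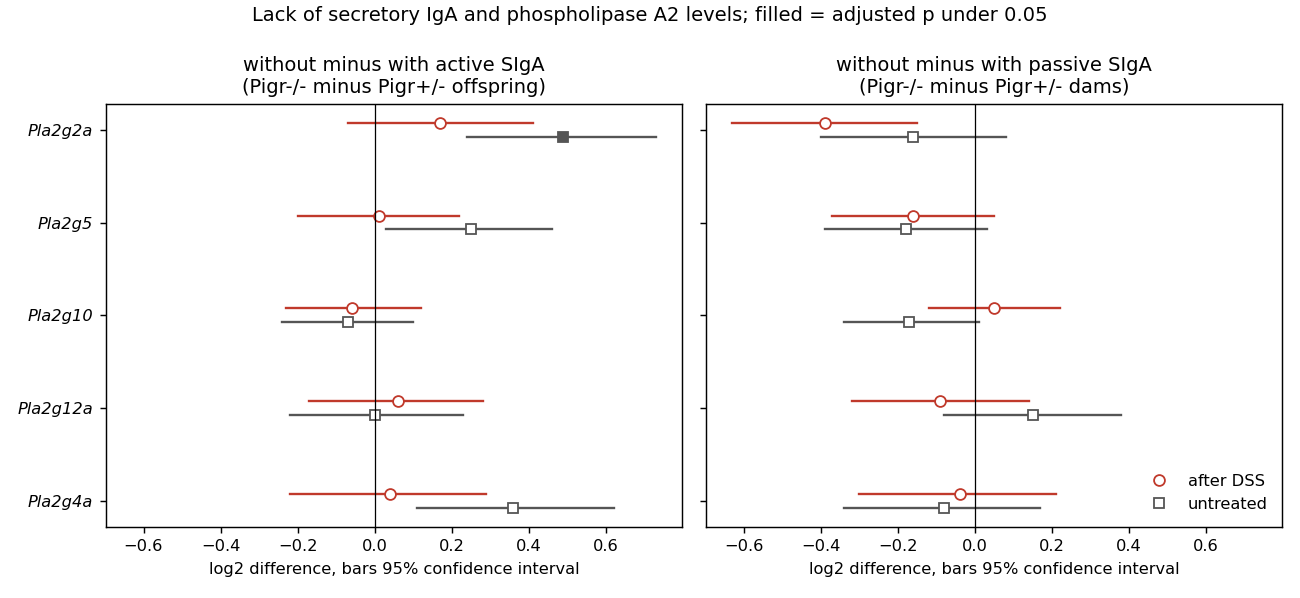
Difference in level (log2, x axis) without minus with active SIgA (left panel) and without minus with passive SIgA (right panel) for each phospholipase A2 gene (rows), after DSS (red circles) and in untreated mice (grey squares), with bars for the 95% confidence interval and filled symbols for an adjusted p under 0.05. The single filled symbol is Pla2g2a in untreated mice without active SIgA, at 0.49.

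Pla2g2a and Pla2g5 lie next to each other in a cluster of secreted phospholipase genes on chromosome 4, where 1 of their phospholipase neighbours was called lower under 1 normalization and none in the fit reported here. The RefSeq order of the phospholipase A2 genes there is Pla2g2c, Pla2g2f, Pla2g2d, Pla2g5, Pla2g2a and Pla2g2e, and Pla2g2a lies inside the span of Pla2g5. The average DSS effect was -0.07 ± 0.09 for Pla2g2c, -0.18 ± 0.06 for Pla2g2f (adjusted p = 0.083), -0.04 ± 0.10 for Pla2g2d and 0.05 ± 0.09 for Pla2g2e. After quantile normalization Pla2g2f was called lower (-0.22 ± 0.06, adjusted p = 0.0294), and with arrays centred on their median it missed the threshold (-0.21 ± 0.06, adjusted p = 0.0507). The 4 neighbours code for other secreted group II enzymes. Since the 2 responding genes overlap in position, whether either probe set also takes up transcript of the other was not tested.

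The sequence upstream of a responding gene, Pla2g5, is shown beside that of Pla2g4a, which was not called. RefSeq windows of the 250 bases before a transcript start were found for 4 of the 5 members, 6 windows in all. Only the part of a window outside the gene's own span is printed, 5′ to 3′ on the strand of the gene, with capitals for a CCAAT box. The Pla2g5 stretch is chr4:138863563-138863719 (minus strand, GRCm38.p6, 157 bases, 54.1% G and C). The Pla2g4a stretch is chr1:149961291-149961540 (minus strand, GRCm38.p6, 250 bases, 43.2% G and C).
Pla2g5: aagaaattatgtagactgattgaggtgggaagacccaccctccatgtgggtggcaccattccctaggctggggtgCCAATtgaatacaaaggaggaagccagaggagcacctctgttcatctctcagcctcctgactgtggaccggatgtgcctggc
Pla2g4a: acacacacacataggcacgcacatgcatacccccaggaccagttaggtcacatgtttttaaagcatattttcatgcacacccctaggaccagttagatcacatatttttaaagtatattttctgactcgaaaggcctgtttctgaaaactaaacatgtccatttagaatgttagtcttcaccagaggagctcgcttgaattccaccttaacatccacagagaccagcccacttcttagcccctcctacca

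In all 6 windows, 6 motifs were searched on both strands of the 250 bases, and the same was done in 32851 RefSeq windows. The CCAAT box (CCAAT) was in 33.8% of all windows and began 175 bases before the start in the Pla2g5 window above, 144 in the other Pla2g5 window, 175 in Pla2g12a and 8 in Pla2g10. The GC box (GGGCGG, in 32.7%) was found in Pla2g10 alone, 65 and 37 bases before the start, and the TATA box (TATAAA, in 12.4%) in the second Pla2g4a window, 200 bases before it. The AP-1 motif (TGANTCA, in 6.75%), the STAT motif (TTCNNNGAA, in 7.02%) and the NF-kB motif (in 7.25%) had no match in any of the 6 windows. The windows of Pla2g5 thus shared the CCAAT letters with 2 members that were not called.

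Genes whose level moved most like each responding member over the 16 arrays were found by the root mean square distance between profiles centred on their own mean, over 17159 genes. Nearest to Pla2g2a were Sulf2, which trims sulfates from heparan sulfate outside the cell, at a distance of 0.234 log2, Wfdc17, a small secreted protein of the whey acidic protein family, at 0.263, and Mfsd2a, a carrier of lysophosphatidylcholine, at 0.284. Their average DSS effects were 1.60 ± 0.08, 1.94 ± 0.11 and 1.73 ± 0.09. Nearest to Pla2g5 were Fut2, a fucosyltransferase of the epithelial surface, at 0.159, Cd14, the co-receptor for lipopolysaccharide, at 0.163, and Gna14, a G protein subunit, at 0.177. Their DSS effects were 0.76 ± 0.06, 0.99 ± 0.08 and 0.78 ± 0.06. The distance between Pla2g2a and Pla2g5 was 0.537, so each lay nearer to these genes than to the other. Part of that distance is the difference in size of their DSS effects (1.88 and 0.95), and the nearest genes were picked for small distances.

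The other phospholipases A2 mostly did not pass. Of 23 measured, 4 rose and 1 fell on average after DSS, with a median difference of -0.01 against 0.00 for all genes. For this list and the lists below, 6.4% of all genes were called higher and 6.73% lower. Pla2g3, the group III secreted enzyme related to that of bee venom, fell to 7.36 to 7.78 after DSS, against 7.87 to 8.43 in untreated mice (-0.61 ± 0.07, adjusted p = 6.85e-05), with no overlap. Pla2g7, the secreted platelet-activating factor acetylhydrolase known from macrophages, ran from 6.47 to 7.30 after DSS and from 5.86 to 6.17 in untreated mice, again with no overlap (0.73 ± 0.10, adjusted p = 0.000276). Pla2g4c, a cytosolic enzyme that needs no calcium, rose by 0.46 ± 0.09 (adjusted p = 0.00341). Pla2g4f, another cytosolic member, rose by 0.27 ± 0.06 (adjusted p = 0.0138) and Pafah1b2, a subunit of an intracellular acetylhydrolase, by 0.23 ± 0.06 (adjusted p = 0.0268). Both of these were lost without both untreated passive-and-active arrays (adjusted p = 0.131 and 0.15), which left 2 that rose and 1 that fell, and Pafah1b2 also with arrays centred on their median (adjusted p = 0.0823). Pla2g12b, named after its value was seen, was called higher with the replicate block (0.23, adjusted p = 0.0469).

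The products of phospholipase A2 are used by several enzyme groups, of which prostanoid synthesis changed in both directions. Of 10 measured genes, 4 rose and 1 fell, with a median of 0.03. Ptgs2, the inducible cyclooxygenase, ran from 8.21 to 9.31 after DSS and from 6.84 to 7.99 in untreated mice (1.53 ± 0.16, adjusted p = 2.85e-05). Ptges3, a co-chaperone also described as a prostaglandin E synthase, rose by 0.49 ± 0.12 (adjusted p = 0.0128), Ptges, the inducible prostaglandin E synthase, by 0.32 ± 0.06 (adjusted p = 0.00409), and Ptgis, the prostacyclin synthase, by 0.31 ± 0.07 (adjusted p = 0.0108). Cbr1, a carbonyl reductase that acts on prostaglandin E2, fell by 0.29 on the log2 scale (SE 0.06, adjusted p = 0.00859). Without both untreated passive-and-active arrays, 2 rose and 1 fell, with Ptges (adjusted p = 0.0902) and Ptges3 (adjusted p = 0.0568) no longer called. The Ptges difference was 0.24 without those arrays and 0.30 without the 3 arrays that stood apart, and that of Ptges3 was 0.50 and 0.37. Cbr1 was not called without the 3 arrays that stood apart (adjusted p = 0.0843). Hpgds, a prostaglandin D synthase, named after its value was seen, was called lower with the replicate block (-0.32, adjusted p = 0.0299).

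Of 14 genes for prostanoid receptors and inactivation, 3 fell and none rose, with a median of -0.05, where 6.73% of all genes were called lower. Hpgd, the dehydrogenase that inactivates prostaglandins, ran from 10.80 to 11.16 after DSS and from 11.35 to 11.78 in untreated mice (-0.55 ± 0.06, adjusted p = 7.65e-05), with no overlap. Slco2a1, the transporter that takes prostaglandins into cells, fell by 0.49 on the log2 scale (SE 0.07, adjusted p = 0.000456). Ptger4, a prostaglandin E2 receptor, fell by 0.31 (SE 0.09, adjusted p = 0.0305), a call lost without both untreated passive-and-active arrays (adjusted p = 0.0579). The Ptger4 difference was -0.37 without those arrays and -0.45 without the 3 arrays that stood apart.

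Of 17 lipoxygenase and leukotriene genes, 2 rose and 1 fell, with a median of -0.01. Of all genes, 6.4% were called higher and 6.73% lower. Dpep1, a dipeptidase that cleaves leukotriene D4, fell by 0.56 (SE 0.06, adjusted p = 5.12e-05). Alox5ap, the partner protein of 5-lipoxygenase, rose by 0.44 ± 0.11 (adjusted p = 0.0171) and Cyp4f18, a mouse leukotriene B4 hydroxylase of neutrophils, by 0.39 ± 0.08 (adjusted p = 0.0079). Alox5ap was no longer called without both untreated passive-and-active arrays (adjusted p = 0.0837), and neither rise was called without the 3 arrays that stood apart (adjusted p = 0.0515 and 0.0756). Alox12, the platelet-type 12-lipoxygenase, named after its value was seen, was -0.26 (adjusted p = 0.0553). It was called lower with arrays centred on their median (-0.28, adjusted p = 0.0149), after quantile normalization (-0.23, adjusted p = 0.0136) and with the replicate block (-0.26, adjusted p = 0.0285), which gave 2 that rose and 2 that fell.

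Of 21 genes on the list of lysophospholipid reacylation and lysophospholipases, 5 rose and none fell, with a median of 0.08. Ptafr, the receptor for platelet-activating factor, which is on that list, rose by 1.29 ± 0.11 (adjusted p = 7.07e-06), with 7.04 to 7.61 after DSS and 5.43 to 6.53 in untreated mice. Lpcat4, a lysophospholipid acyltransferase, rose by 0.56 ± 0.07 (adjusted p = 0.000238). Lpgat1 and Agpat5, acyltransferases, and Acsl5, which activates long-chain fatty acids, rose by 0.40 ± 0.09, 0.31 ± 0.08 and 0.19 ± 0.05. The last 3 were lost without both untreated passive-and-active arrays (adjusted p = 0.066, 0.135 and 0.0702), and Agpat5 and Acsl5 also with arrays centred on their median (adjusted p = 0.0762 and 0.102). Acsl5 was lost as well after quantile normalization (adjusted p = 0.0618). Of the 5 genes for the phospholipase A2 receptor and for proteins that inhibit these enzymes, Anxa5 (0.58 ± 0.13, adjusted p = 0.00896) and Anxa1 (0.53 ± 0.13, adjusted p = 0.0182), annexins that bind phospholipids, rose. The median of these 5 was 0.15, and Anxa1 was lost without the same arrays (adjusted p = 0.0602). Anxa2, named after its value was seen, was called higher after quantile normalization (0.15, adjusted p = 0.0461).

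**Figure D4:**
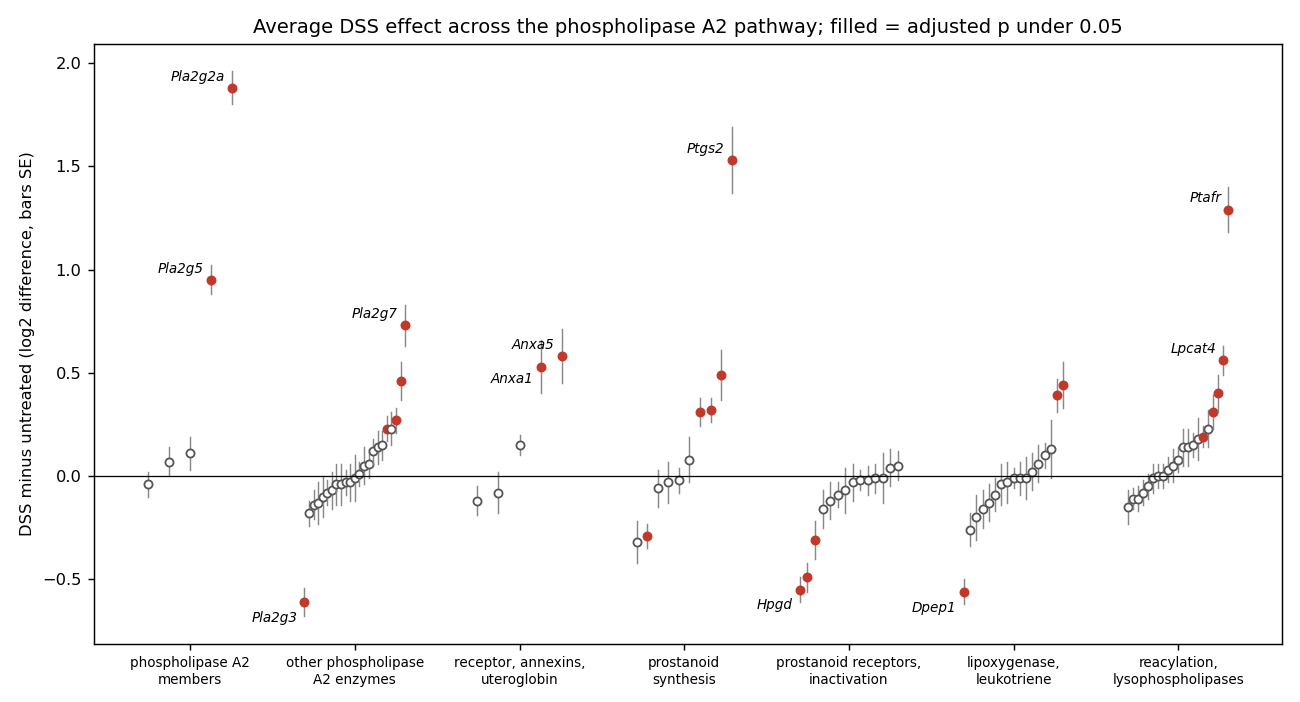
Average DSS minus untreated difference in level (log2, y axis, bars SE) of the 5 phospholipases A2 and of each measured gene of 6 related lists (x axis), with filled points for an adjusted p under 0.05. Pla2g2a at 1.88, Ptgs2 at 1.53 and Ptafr at 1.29 are the highest, and Pla2g3 at -0.61 is the lowest.

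Markers of other cell types moved with DSS on the same arrays as Pla2g2a and Pla2g5, where 6.4% of all genes were called higher. Of 15 neutrophil markers, 10 rose and none fell, with a median of 0.70, and their mean level per array ran from 6.61 to 7.20 after DSS and from 5.90 to 6.30 in untreated mice. Retnlg, S100a8 and Hdc rose by 1.54 ± 0.10, 1.11 ± 0.09 and 1.03 ± 0.08. The 14 markers of monocytes and macrophages gave 9 that rose and 0 that fell, with a median of 0.42, and their mean level ran from 6.50 to 6.78 after DSS and from 5.96 to 6.32 in untreated mice. Cybb, Cd14 and Fcer1g rose by 1.12 ± 0.11, 0.99 ± 0.08 and 0.99 ± 0.09. The part of these cells in the rise of Pla2g2a, Pla2g5, Pla2g7, Ptgs2, Ptafr, Alox5ap and Cyp4f18 was not tested.

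**Figure D5:**
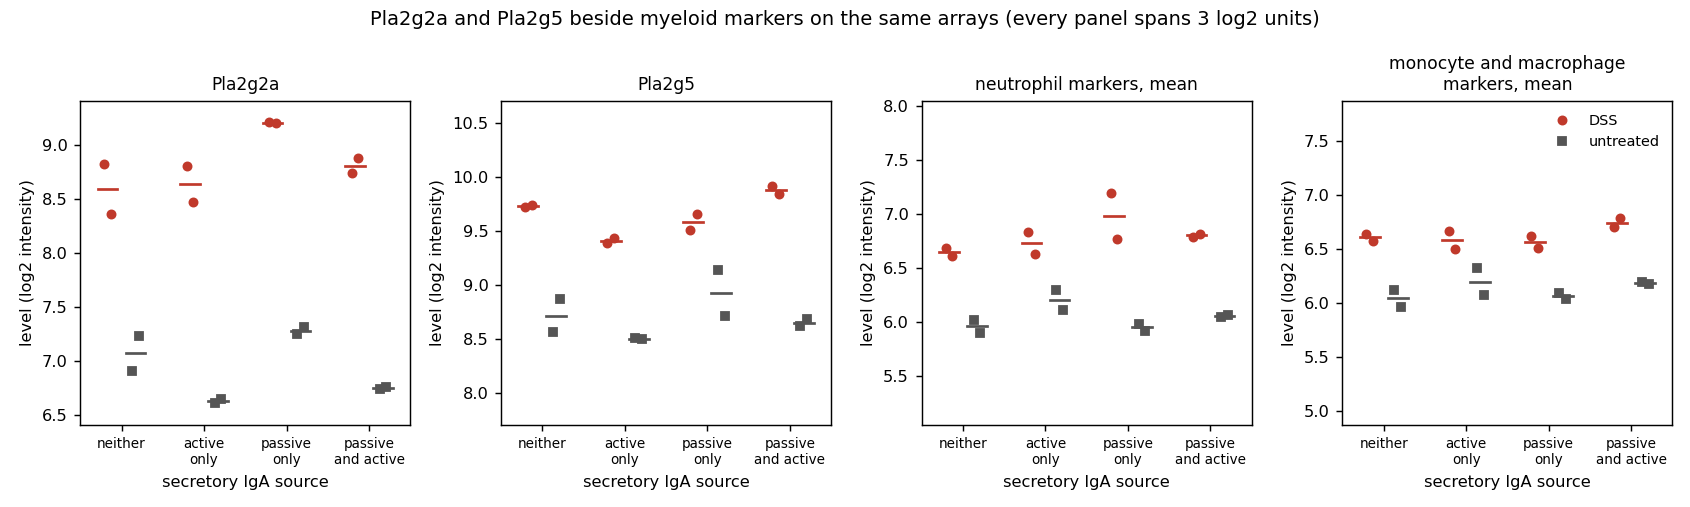
Level (log2 intensity, y axis, every panel spanning 3 log2 units) of Pla2g2a and Pla2g5 and the mean level of 15 neutrophil and of 14 monocyte and macrophage markers in the 4 SIgA groups (x axis), with DSS arrays as red circles left of untreated arrays as grey squares and bars at the mean of 2 arrays. All 4 measures are higher on every DSS array than on every untreated array. How many of all genes have no overlap was not counted.

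Of 14 Paneth cell markers 5 were measured and none was called, though Itln1, named after its value was seen, was called lower with arrays centred on their median (-0.27 ± 0.08, adjusted p = 0.0384). Their mean level ran from 5.31 to 5.61 after DSS and from 5.33 to 5.71 in untreated mice. Of 10 mast cell markers, Mcpt2 (1.39 ± 0.23) and Mcpt1 (1.3 ± 0.27) rose and Kit (-0.71 ± 0.10) fell, and their mean level ran from 5.63 to 6.03 after DSS and from 5.44 to 5.79 in untreated mice. Of the 14 epithelial markers, Slc26a3 (-0.47 ± 0.08) and Krt18 (-0.20 ± 0.06) fell. Of 11 fibroblast markers Dcn rose (0.78 ± 0.13), of 7 smooth muscle markers Mylk rose (0.19 ± 0.06), and Igha, 1 of 8 markers of B and plasma cells, fell (-0.61 ± 0.14). Without both untreated passive-and-active arrays, Krt18 (adjusted p = 0.256), Mylk (adjusted p = 0.532) and Igha (adjusted p = 0.593) were not called. Mcpt1 missed the threshold without the 3 arrays (adjusted p = 0.0762), and Mylk with arrays centred on their median (adjusted p = 0.0584) and after quantile normalization (adjusted p = 0.0962). None of 8 T cell and 8 endothelial markers was called.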

How the data were processed

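The authors deposited log2 intensities of Affymetrix whole-transcript arrays, for which RMA is named in the submitters' processing notes (its version is not given in the sources used). RNA with an integrity number of at least 8.5 was pooled from 3 mice per array, per the labels' protocols, and the arrays limit the precision by their number. Of 35557 probe sets, 21789 named 1 gene, 1621 several and 12147 none, and only the first kind was used, with the highest-mean probe set where a gene had several. Group means were fitted with limma 3.58.1 in R 4.3.3, with 8 residual and 5.03 prior degrees of freedom. Differences are DSS minus untreated, or without minus with a SIgA source. Each p-value rests on the spread between pools, not between single mice. The fit was tested on simulated data.

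The members, lists, tests and alternatives were chosen with earlier results of these data known. Named were the 5 members, every called gene of the pathway lists, up to 3 called genes per marker list, the 3 genes nearest to each called member, and Pigr. Genes with Gm, Rik, Mir, Snor, Scarna, Olfr, Or and Vmn symbols were left out of the search for nearest genes. Promoter sequences are from RefSeq (GRCm38.p6).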

Additional observations from a re-analysis of the deposited data

How the results depend on the processing

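The average DSS effects of all 5 members kept their direction and their side of the threshold in 26 alternative settings, with 1.81 to 1.93 for Pla2g2a and 0.86 to 1.01 for Pla2g5. With passive SIgA only, 1 member in place of 2 was called with arrays centred on their median (Pla2g5 adjusted p = 0.0588), with a fold change of at least 1.5 and with only the arrays compared in the fit, and 1 to 2 with 1 array left out. With active SIgA only, 1 member was called with array weights, a fold change of at least 1.5, only the arrays compared, and without the 3 arrays that stood apart, and 1 to 2 with 1 array left out. With neither source, a fold change of at least 1.5 left 1 member. Lack of active SIgA averaged over all groups gave 0 to 1 members with 1 array left out. In untreated mice it gave 1 member in the reported fit. It gave 0 members with the dimmest 30% of genes left out, with a fold change of at least 1.5, without both untreated passive-and-active arrays and without the 3 arrays, and 0 to 2 with 1 array left out. The replicate block gave 2 members there (Pla2g4a 0.36, adjusted p = 0.0482) and changed no other member's call. Whether the replicate numbers pair the samples was not settled. The correlation of same-numbered deviations ran from -0.301 to 0.666 over 28 pairs of groups (median 0.0758), and 14 pairs were over 0.1. With the replicate block, the average DSS effect called 1518 of all genes higher and 1514 lower, more than in the reported fit. Fits without an array leave its group with a single one, whose spread is then taken from the remaining groups. The causes were not tested.

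Over all genes, the average DSS effect called 1276 higher and 1342 lower, but 874 and 1637 with arrays centred on their median, 574 and 636 without both untreated passive-and-active arrays, 498 and 609 without the 3 arrays, and 76 and 23 at a fold change of at least 1.5. Lack of active SIgA in untreated mice called 313 higher and 1181 lower, but 732 and 1594 with the replicate block, 157 and 478 after quantile normalization, 123 and 810 with only the arrays compared, 4 and 15 without the dimmest 30%, 0 and 2 at a fold change of at least 1.5, and 0 and 0 by limma without those 2 arrays or without the 3, where 2176 and 793 genes had an unadjusted p under 0.05. DSS with passive and active SIgA, the passive by active by DSS term and the DSS effect with neither source minus that with both could not be computed without those 2 arrays. Lack of active SIgA in untreated mice then rested on offspring of Pigr-/- dams alone.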
